A study of Mus musculus with 6 samples.

Results

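Libraries of the CreT control were compared with those of the Erg fl/fl control, the 2 groups of mouse B-cell progenitors in this in situ Hi-C series that keep Erg, an ETS-family transcription factor. Members were chosen by genotype label alone: 4 of the 6 libraries, 2 for each group. The other 2 libraries, labelled Erg KO, entered no test between the controls except the alternative fitted over 6 libraries, and their values are given where they stand beside a control value. In all 6 cultures, bone marrow depleted of mature lineages had grown for 8 days on OP9 stroma with SCF, IL7 and FL, and B220+ cells had been selected.

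The CreT control has the genotype Rag1CreT/+. It is heterozygous for a transgene that drives Cre recombinase in lymphoid progenitors, and its Erg alleles are not floxed. The Erg fl/fl control has the genotype Rag1Cre+/+;Erg fl/fl, with loxP sites in both Erg alleles and no Cre. The groups therefore differed both in the transgene and in the floxed alleles, and the parts of these 2 differences cannot be told apart. Both CreT control libraries came from female mice. Of the Erg fl/fl control, replicate 1 came from a female and replicate 2 from a male. The background strain is labelled C56BL/6 for all, the labels give no age, and the sources used here do not say where in the genome the transgene lies.

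Hi-C ligates DNA fragments that are neighbours in the nucleus, and each read pair records a contact. Contact frequency falls with distance along a chromosome, and the shape of that fall is called the distance decay. At the scale of megabases, chromatin separates into compartment A, which is gene-rich and mostly active, and compartment B, which is gene-poor and mostly silent. At finer scale, domains are held apart by boundaries that few contacts cross, a property called insulation. In B-cell progenitors the heavy chain locus Igh contracts, which brings distant VH segments near the DH and JH segments for V(D)J recombination by the Rag1 and Rag2 proteins.

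The CreT control libraries held 62155453 and 68085468 read pairs, and those of the Erg fl/fl control 43924865 and 29014581. They were counted in bins of about 100 kb on mm10. Of 24067 autosomal bins, 23639 passed the coverage filter. To compare libraries at equal depth, all 4 were also thinned at random to the autosomal depth of Erg fl/fl control replicate 2, 28144968 autosomal read pairs. Random thinning keeps shares, slopes and ratios to expected contacts the same on average, so for these it is no check of depth. That library, the shallowest and the only male one of the 4, stood apart from the other 3 in most measures, so values without it are given beside those that rest on it. With 2 libraries against 2, the exact permutation test, two-sided, cannot go below p = 0.333, so for single values the levels in each library are the result.

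Chromosomes of the CreT control had more contacts over long distances and fewer of 0.5 to 2 Mb, the range of domains and long loops. Of contacts within autosomes, those over 10 Mb took 34.1% and 35.1% in the CreT control and 30.8% and 27.8% in the Erg fl/fl control (means 34.6% ± 0.755 and 29.3% ± 2.13, SD, n = 2 each). Those of 0.5 to 2 Mb took 14.3% and 13.2% against 15.3% and 18.6% (13.7% ± 0.824 and 17.0% ± 2.34, SD, n = 2 each). Contacts between autosomes took 24.6% and 26.7% of all autosomal read pairs against 24.2% and 21.5%, a difference between means of 2.78 percentage points. In these 3 shares no library of one group overlapped the other group. Contacts under 0.5 Mb (36.5%, 37.3%, 39.1% and 36.6%, CreT control first) and of 2 to 10 Mb (15.1%, 14.5%, 14.8% and 17.0%) overlapped between the groups.

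The decay was shallower in the CreT control from 0.5 to 7 Mb, with slopes on log axes of -1.030 and -1.001 against -1.092 and -1.149. It was steeper from 0.2 to 0.7 Mb, with slopes of -0.95 and -1.01 against -0.94 and -0.79. All 19 autosomes had a larger share between chromosomes and over 10 Mb in both CreT control libraries, and a smaller share of 0.5 to 2 Mb. The difference over 10 Mb ran from 3.87 points on chromosome 19 to 5.72 on chromosome 7. The autosomes of a library are not independent samples. The exact permutation test gave p = 0.333 for each of the 3 shares and for the slope from 0.5 to 7 Mb, the smallest p it allows.

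Random thinning keeps each share on average, so it cannot test the part of depth here. It left these differences at 2.78 points between chromosomes, 5.26 over 10 Mb and -3.23 at 0.5 to 2 Mb. Among female libraries alone, without Erg fl/fl control replicate 2, they were 1.43, 3.76 and -1.57 points. Without Erg fl/fl control replicate 1, the difference at 0.5 to 2 Mb was -4.88 points. Without CreT control replicate 2, the difference between chromosomes was 1.74 points. The mean share between chromosomes in the Erg KO libraries was 33.3%, and that over 10 Mb 37.6%, both above either control group.

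**Figure D1:**
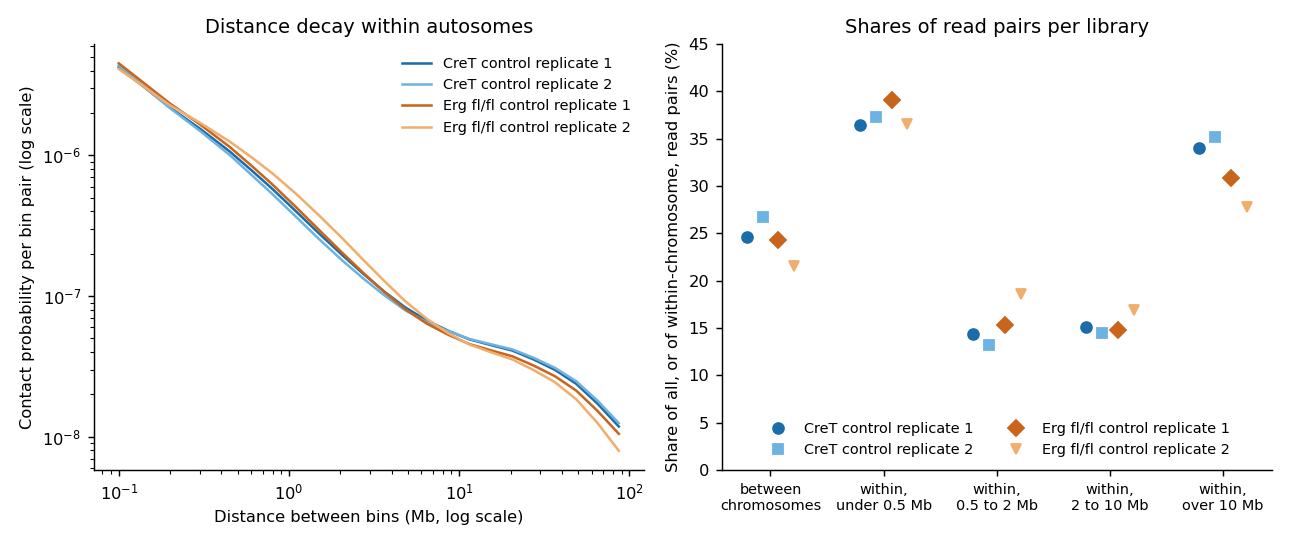
Left, mean contact probability per bin pair against distance between bins (Mb, both axes logarithmic), a line for each of the 4 control libraries. Right, share of all autosomal read pairs that join different chromosomes, and share of within-chromosome read pairs in 4 distance classes (%), a point per library: over 10 Mb both CreT control points (34.1% and 35.1%) sit above both Erg fl/fl control points (30.8% and 27.8%).

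The way libraries resembled each other did not follow genotype in the same degree for each measure. For each pair of libraries the SD over bins of the difference in a score was taken, so that a small SD means 2 like libraries. In compartment scores the CreT control replicates were the closest pair, at 0.0572. CreT control replicate 1 and Erg fl/fl control replicate 1 followed at 0.110, and CreT control replicate 2 and Erg fl/fl control replicate 1 at 0.121. The 2 Erg fl/fl control replicates lay farther apart, at 0.132.

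In insulation the contrast was wider. The CreT control replicates differed by 0.104, and Erg fl/fl control replicate 1 differed from them by 0.123 and 0.140. Its own replicate stood at 0.286 from it. Local contacts, those of a bin over 200 kb to 2 Mb, gave 0.0877 within the CreT control, 0.106 and 0.114 across to Erg fl/fl control replicate 1, and 0.242 within the Erg fl/fl control. By each of these scores Erg fl/fl control replicate 1 was thus nearer to both CreT control libraries than to its own replicate. At equal depth the order of the 3 insulation values was kept, at 0.133 within the CreT control, 0.141 and 0.157 across, and 0.289 within the Erg fl/fl control. A library set against its own thinned version gave 0.0409 to 0.0596, below every such pair.

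**Figure D2:**
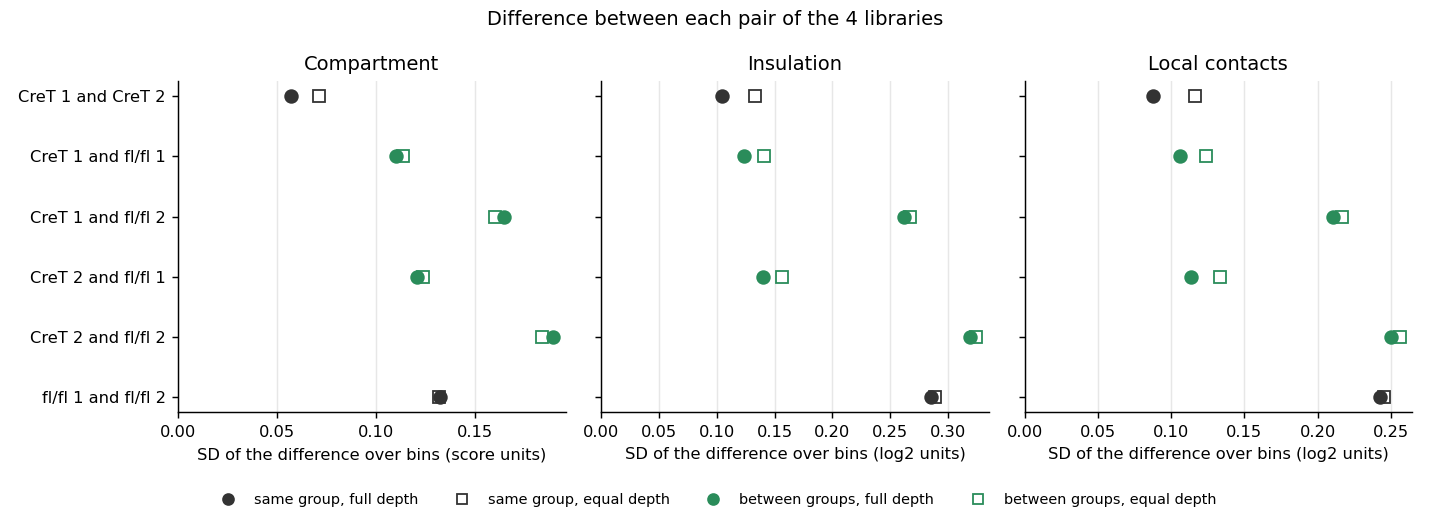
SD over bins of the difference between 2 libraries, for each of the 6 pairs among the 4 control libraries, in compartment score (score units), insulation score and local contacts (log2 units), with filled circles at full depth and open squares at equal depth. Pairs with Erg fl/fl control replicate 2 lie farthest right in insulation (0.262 to 0.320), and its own replicate is among them (0.286).

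No feature separated the 2 control groups at an adjusted p of 0.05 in any of the 4 tests across the genome. The counts called were 0 of 23639 bins in compartment score and 0 of 23187 in insulation (limma), and 0 of 23638 bins in local contacts and 0 of 464934 bin pairs (edgeR quasi-likelihood test, Benjamini-Hochberg adjustment). The smallest adjusted p was 0.126 for compartment, 0.815 for insulation, 0.941 for local contacts and 0.217 for bin pairs. At an unadjusted p under 0.05 the tests passed 4261 bins (18.0%), 778 (3.36%), 1161 (4.91%) and 27606 bin pairs (5.94%). DESeq2 also called 0 bins in local contacts and 0 bin pairs. The background share called was thus 0% in all 4 tests.

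These counts of 0 rested on Erg fl/fl control replicate 1. Without it, so that the male library stood alone for its group and the spread came from the 2 CreT control libraries, 6743 bins were called in compartment score, 12403 in insulation and 10027 in local contacts, and 3339 bin pairs. Without the male library the counts were 0, 156, 151 and 1.

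Compartments had the same sign in nearly all bins. A score is the leading pattern of contact preferences along a chromosome, scaled to SD 1 and turned so that positive values mark the gene-rich A side. Of 23639 bins, 10872 (46.0%) were positive and 11458 (48.5%) negative in all 4 libraries. A further 154 bins (0.651%) were positive in both CreT control libraries and negative in both Erg fl/fl control libraries, and 181 (0.766%) had the opposite pattern. Erg fl/fl control replicate 2 alone differed in sign from the other 3 libraries in 494 bins (2.09%). In the scores themselves, the CreT control lay above the Erg fl/fl control with no overlap in 6277 bins, a share of 26.6%, and below it in 7043, a share of 29.8%.

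The 2 compartments were more separate in both CreT control libraries. Compartment strength, the preference for contacts within over contacts between the outer 20% of bins at either end of the score, was 6.03 and 6.72 against 5.72 and 4.61 (6.37 ± 0.490 and 5.16 ± 0.786, SD, n = 2 each, exact permutation p = 0.333). Contacts between A and B were 0.258 and 0.238 of those expected by distance, against 0.271 and 0.312. Contacts within B overlapped. Without the male library the difference in strength was 0.657 in place of 1.21, and at equal depth it was 1.20.

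A small set of regions held the largest compartment differences. Bins were taken whose group means differed by more than 0.5 and whose libraries did not overlap, a choice made on these scores, so what follows is a description with no test of its own. They numbered 112, with 59 higher and 53 lower in the CreT control, in 41 runs of adjacent bins. Neighbouring bins share smoothing, so a run is 1 observation rather than several. Of the 41 runs, 18 had at least 3 bins, 10 of them higher in the CreT control and 8 lower. All 18 kept their sign at equal depth, with differences of at least 0.435 in size. Thinned libraries are subsets of the same reads, so this speaks to depth alone.

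Among the runs with higher scores in the CreT control, a run of 3 bins on chromosome 3 (15299965 to 15599958, mm10) holds Sirpb1a and Sirpb1b, which encode signal-regulatory proteins, immunoglobulin-type receptors of myeloid cells. Its mean score was 1.15 over the CreT control libraries, and 0.59 and 0.47 in those of the Erg fl/fl control. Of the letters of its bins, 55.1% to 66.4% are marked as repeats in the mm10 sequence, and the part this plays was not tested. A run of 3 bins on chromosome 6 (123100060 to 123400530) holds Clec4d, Clec4e and Clec4n, C-type lectin receptors by which myeloid cells sense fungi and mycobacteria, and scored 0.82 and 0.93 against 0.40 and 0.20. In both runs all 4 libraries were positive, so the regions were on the A side throughout and differed in degree. The fixed list of 20 myeloid and NK genes was not drawn from these runs. It had 4 genes higher and 8 lower, near the 26.5% and 34.8% of bins with a protein-coding start.

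Other runs crossed from one side to the other. On chromosome 1 (83899974 to 84699641) a run of 8 bins over Pid1 and Dner, the latter a Notch ligand of neurons, scored 0.53 and 0.65 in the CreT control, against -0.03 and -0.36. On chromosome 13 (119300531 to 119899897) a run of 6 bins with Nnt, the mitochondrial transhydrogenase, Ccl28, a mucosal chemokine, and Hmgcs1, an enzyme of cholesterol synthesis, had 0.56 and 0.63 against -0.19 and -0.20. Runs at Stxbp6, whose product binds the vesicle fusion machinery, and at Adgb and Rab32 on chromosome 10 also went from negative to positive. In the chromosome 13 run the replicates of both groups lay close together. Part of it is assembled poorly in mm10, as given with its coverage in a later paragraph.

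The longest run of all was lower in the CreT control. It spans 11 bins on chromosome 13 (31599916 to 32699939) with Foxf2 and Foxc1, forkhead factors of mesenchyme, and Gmds, an enzyme of fucose synthesis, and scored -0.11 and -0.31 against 0.28 and 0.45. Mast4, a kinase gene, lay in a run of 5 bins that was negative in all 4 libraries, at -0.88 and -0.94 against -0.39 and -0.18. A run with Postn, which encodes the matrix protein periostin, had -0.41 and -0.46 against -0.12 and 0.29. A run over the light chain locus Igl and 3 olfactory receptor genes had -0.50 and -0.59 against -0.26 and 0.47, and its sign in the Erg fl/fl control differed between the replicates. Erg fl/fl control replicate 1 lay between the CreT control and replicate 2 in all 18 of these longer runs.

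The Erg KO libraries carry the transgene and floxed Erg alleles that Cre has deleted, so they also lack Erg. The paper places the developmental block of such mice at the pre-proB stage. In these regions the 2 Erg KO libraries did not resemble each other. Over the 18 longer runs, Erg KO replicate 2, from a male, was nearer to the CreT control mean in 18. Erg KO replicate 1, from a female, was nearer to the CreT control in 8 and to the Erg fl/fl control in 10. At Sirpb1a and Sirpb1b the Erg KO replicates had 0.24 and 1.00, so that 1 was below both Erg fl/fl control libraries and the other close to the CreT control. At Clec4d, Clec4e and Clec4n they had -0.04 and 0.76.

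**Figure D3:**
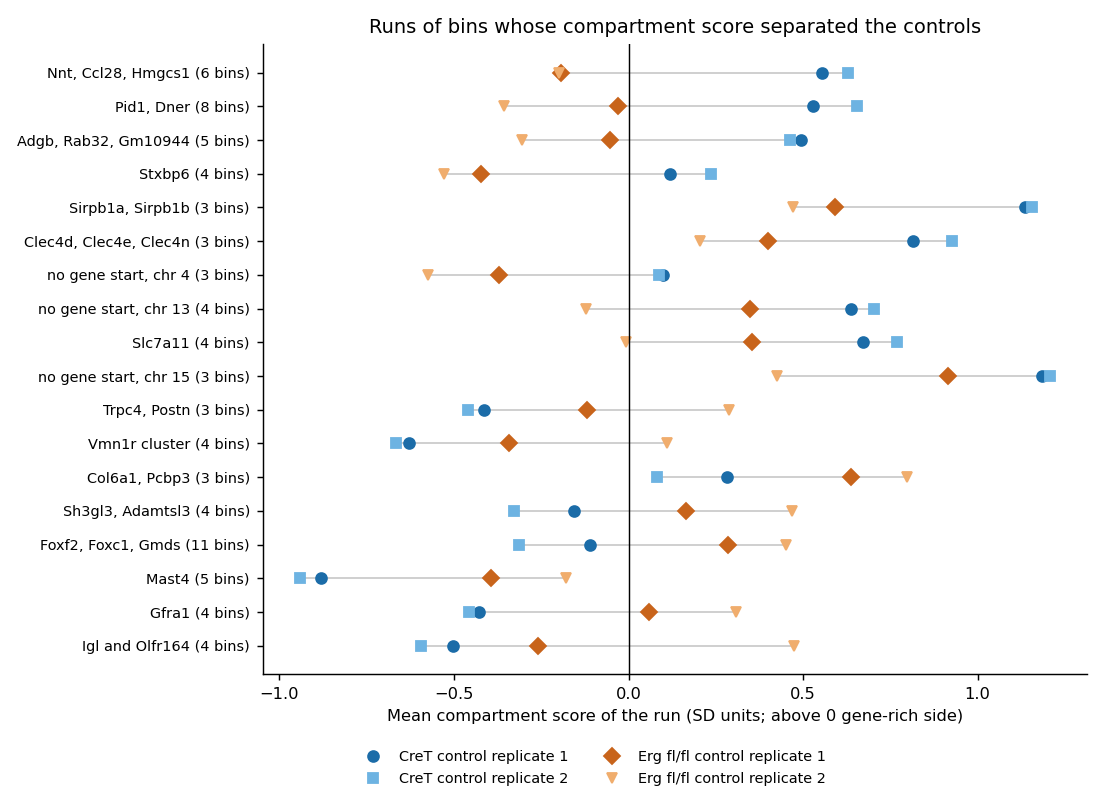
Mean compartment score (SD units, positive on the gene-rich side) of the 18 runs of at least 3 bins chosen for their difference, a point for each of the 4 control libraries and a line from lowest to highest. In each run Erg fl/fl control replicate 1 lies between the CreT control points and replicate 2, as at Pid1 and Dner (0.53, 0.65, -0.03 and -0.36). How close the CreT control points lie to each other varies, and at Foxf2, Foxc1 and Gmds they are -0.11 and -0.31.

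By the rule for single bins, which took the 5 largest moderated statistics in each direction with no overlap, 3 of the 5 higher bins lay beside Sirpb1 genes and 2 on chromosome 13. The Sirpb1b bin (chromosome 3, 15499928 to 15599958) scored 1.09 and 1.12 against 0.40 and 0.38, a difference of 0.72 (SE 0.03, limma adjusted p = 0.126). The lower bins were more scattered. The bin of Tead1, a factor of the Hippo pathway (chromosome 7, 112600257 to 112700015), had -0.23 and -0.33 against 0.24 and 0.29, and that of Prl5a1, a placental prolactin, -0.81 and -0.80 against -0.38 and -0.35. The last bins of that set lay inside Sox5, at Gm17542 and on chromosome 1 outside any gene.

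Relative coverage, the log2 of a bin's total contacts over the median of bins within 2 Mb, was close to equal between the groups. Its difference had an SD of 0.0386 over 23638 bins, against 0.0396 between the CreT control replicates and 0.0690 between the Erg fl/fl control replicates. Only 3 bins differed by more than 0.3 with no overlap. They were named after this scan and are given without a test. The bin nearest to that limit, with Ccr4 and Trim71 on chromosome 9, had 0.74 and 0.72 in the CreT control against 0.42 and 0.46.

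A pair of these bins are neighbours on chromosome 13. The first runs from 119493073 to 119599781 inside the body of Tmem267, and 93.7% of its letters are unknown in mm10, which leaves 6709 known bases and 14 GATC sites. Bins are made of whole restriction fragments, so each end of it is a GATC. These 2 ends are printed from the mm10 forward strand, with the site in capitals, to show the landmarks between which the unknown stretch lies.
Left end, chr13:119493063-119493086: ctgccctgctGATCtttatagcca
Right end, chr13:119599768-119599791: gaggcaggggGATCactgtgagtg

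Relative coverage of that bin was -1.13 and -1.12 in the CreT control against -0.24 and -0.13, a gap of -0.94, with -0.44 and -0.29 in the Erg KO libraries. The next bin, with the starts of Ccl28 and Hmgcs1, had 0.83 and 0.80 against 1.29 and 1.37, with 0.94 and 1.12 in Erg KO. Contacts with other chromosomes alone gave differences of -0.72 and -0.49 for the 2 bins. Compartment and local contact values of the first bin rest on few known bases.

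The third bin lies inside Anks1b, a gene for a synaptic scaffold protein, on chromosome 10 (89899935 to 90000097), and has no unknown letters. Its relative coverage was -0.34 and -0.38 in the CreT control, against -0.79 and -0.82. The Erg KO libraries had -0.29 and -0.30. The 4 libraries with the transgene were thus on one side and the 2 without it on the other. At the first chromosome 13 bin the Erg KO values lay nearer to the Erg fl/fl control instead. Both bins were picked for their gap between the controls, so only the Erg KO values add to it. The part of the transgene or the floxed alleles was not tested. Contacts within the bin, normalised for depth, numbered 127 and 110 against 65.2 and 58.3, a log2 difference of 0.93 (SE 0.19, edgeR quasi-likelihood test, adjusted p = 0.643). Coverage with other chromosomes alone differed by 0.42. No single bin on another chromosome shared more than 2 read pairs with it in any control library, or more than 3 in an Erg KO library.

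Neither locus named in the genotypes stood out in coverage. Rag1 and Rag2, which encode the recombinase, share a bin on chromosome 2 (101600053 to 101699943), whose coverage difference of -0.03 was at percentile 26.7 of all bins. The bin of the Erg start on chromosome 16 (95500198 to 95599536) had a difference of 0.00, at percentile 50.5. The Rag1 bin shared at most 3 read pairs with any 1 bin of another chromosome in each of the 6 libraries. Bins of this size cannot show a loxP site or a short insertion.

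**Figure D4:**
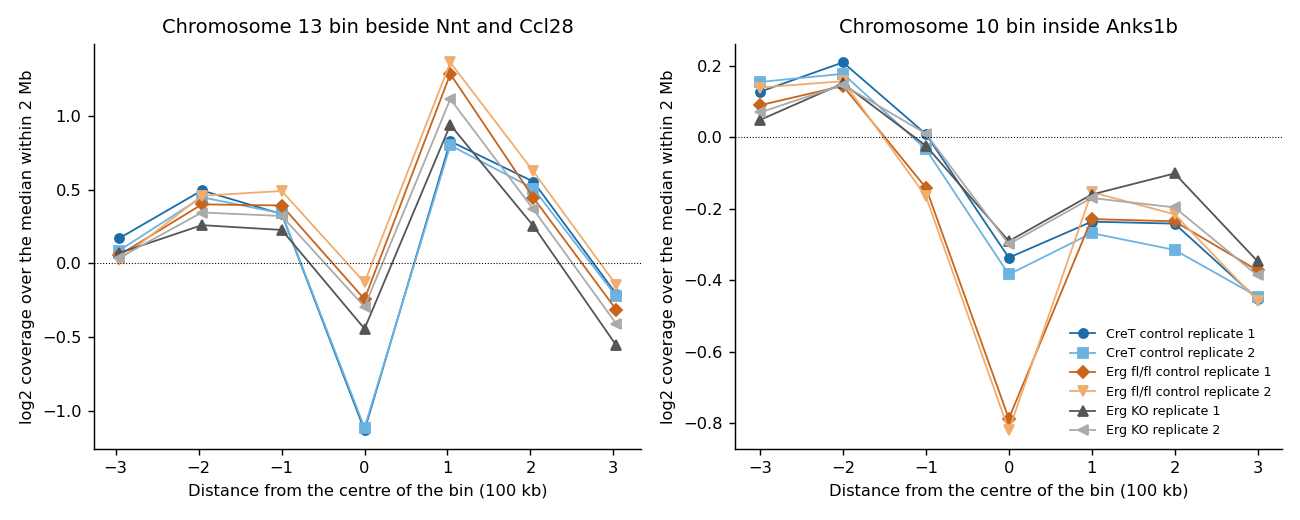
Relative coverage (log2 over the median of bins within 2 Mb) of the bins around the chromosome 13 bin beside Nnt and Ccl28 (left) and the chromosome 10 bin inside Anks1b (right), against distance from the bin's centre (100 kb), for all 6 libraries. On chromosome 10 both Erg fl/fl control libraries (-0.79 and -0.82) lie below the 4 others, and on chromosome 13 both CreT control libraries (-1.13 and -1.12) lie below the 4 others.

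The Rag1 and Rag2 bin scored 0.31 and 0.34 in the CreT control against 0.18 and 0.19 (difference 0.14, SE 0.03, limma adjusted p = 0.168). The Erg bin scored 1.27 and 1.21 against 1.31 and 1.33 (difference -0.08, adjusted p = 0.343). The bin of Pax5, a factor that commits cells to the B lineage, scored 1.12 and 1.06 against 1.23 and 1.29 (difference -0.17, adjusted p = 0.174). Ebf1, a pioneer factor of the same programme, starts in a bin that was on the B side in all 4 libraries, at -0.58, -0.69, -0.44 and -0.02. Its wide spread within the Erg fl/fl control exceeded the gap between CreT control and Erg fl/fl control replicate 1.

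Of 8 marker genes of the B lineage, 7 lay in bins with a positive score in all 4 libraries, Ebf1 being the exception. The bin shared by Vpreb1 and Igll1, which encode the surrogate light chain, had 1.08 and 1.15 against 1.15 and 1.08. All 4 markers of T cells and all 4 of myeloid cells were also positive, as were 2 of 4 markers of stromal cells. Hi-C gives no expression, and a positive score at markers of other lineages does not tell which cells were present. Their part in any difference was not tested.

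Across the 9 gene lists of 20 genes, 0 genes were called in any of the 3 bin measures. Of the B-lineage transcription factors, 3 lay higher and 12 lower in the CreT control with no overlap, with a median difference of -0.03, against 0.00 over all bins. Over all bins 26.6% lay higher and 29.8% lower, and over bins with a protein-coding start 26.5% and 34.8%, so counts in a list of 20 are to be read beside these shares. Lef1 (0.68 and 0.46 against 0.94 and 1.09) and Pou2af1 (-0.05 and -0.07 against 0.09 and 0.25), a B-cell co-activator, were among the lower ones. Genes of V(D)J recombination and end joining had 8 higher and 5 lower (median 0.02). Of these, Xrcc4, an end-joining factor, had 0.14 and 0.16 against -0.12 and -0.42. The largest sizes in these 2 lists therefore ran in opposite directions.

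Pre-BCR and B-cell surface genes also had 8 higher and 5 lower (median 0.01). Ms4a1, which encodes CD20, had 1.23 and 1.36 against 0.96 and 0.85, and Lyn, a kinase of the receptor, 1.24 and 1.19 against 0.99 and 0.96. T-lineage genes had 2 higher and 12 lower, stem and progenitor genes 4 and 10, housekeeping genes 4 and 11, and architectural protein genes 1 and 7 of 19 placed. Among myeloid and NK genes 4 lay higher and 8 lower, beside 26.5% and 34.8% of bins with a protein-coding start. Klrk1, which encodes the receptor NKG2D, had 0.89 and 0.94 against 0.57 and 0.38.

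Stromal genes, listed because OP9 cells were in the culture, had 4 higher and 9 lower (median -0.02), near the 26.5% and 34.8% of bins with a protein-coding start. Postn, Prrx1, a mesenchymal homeobox factor, and Col3a1, a fibrillar collagen gene, had lower scores in the CreT control. Prrx1 scored -0.34 and -0.33 against 0.13 and -0.03, and Col3a1 -1.11 and -1.14 against -0.90 and -0.92. Of the 20 stromal genes, 10 and 10 were positive in the CreT control libraries and 13 and 12 in the Erg fl/fl control libraries. Whether a different number of feeder cells plays a part was not tested.

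Insulation was compared with a score that is the log2 of contacts across a bin, within 500 kb on either side, over the genome mean. A low score marks a boundary. The CreT control was higher with no overlap in 4862 bins, 21% of those tested, and lower in 4165, 18%. Boundaries numbered 1452 and 1485 in the CreT control and 1488 and 1407 in the Erg fl/fl control. Of those in CreT control replicate 1, 90.8% lay within 1 bin of a boundary of replicate 2, 88.5% of Erg fl/fl control replicate 1 and 79.1% of Erg fl/fl control replicate 2. Of the boundaries of Erg fl/fl control replicate 1, 78.5% were matched in its own replicate, fewer than in either CreT control library (86.6% and 87.6%). At the 1416 boundaries of the mean profile, the mean score was -0.76 and -0.81 against -0.73 and -0.68. Of these boundaries, 477 had lower scores in the CreT control with no overlap and 212 higher. Over the lowest 10% of all bins the groups overlapped, at -1.36 and -1.33 against -1.27 and -1.60.

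The bins with the largest statistics in insulation repeated some of the same regions. Inside Dner on chromosome 1 (84399841 to 84499996) the score was 0.20 and 0.32 in the CreT control against -0.12 and -0.43. At Podxl, which encodes a sialomucin of blood progenitors and podocytes (chromosome 6, 31499743 to 31599680), it was -1.34 and -1.43 against -0.92 and -0.77, and the bin before it, inside Mkln1, was also lower. The score at Podxl was thus negative in all 4 libraries and lower in the CreT control, the direction for which the bin was picked. None of the 10 named bins had an adjusted p below 0.815.

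In local contacts the CreT control was higher with no overlap in 4096 bins, 17.3% of those tested, and lower in 4048, 17.1%. In normalised log2 counts, a bin inside Pid1 (chromosome 1, 84200209 to 84300125) had 9.47 and 9.53 against 9.18 and 9.01. A bin with the end of the gene E330034G19Rik (chromosome 14, 24300118 to 24399634) had 9.30 and 9.30 against 9.71 and 9.74. The Pid1 and Dner region was therefore higher in the CreT control in all 3 bin measures. The pheromone receptor genes Vmn1r40 and Vmn1r41 and the endophilin gene Sh3gl3 lay in bins with fewer local contacts in the CreT control, Sh3gl3 at 9.59 and 9.27 against 9.86 and 10.05. The adjusted p of the named bins was 0.941.

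Of 464934 pairs, the CreT control was higher with no overlap in 88119, a share of 19%, and lower in 77243, a share of 16.6%. After normalisation to equal counts at each abundance, from 0.1 to 0.5 Mb, pairs within B had a median of 0.11, with 26.4% higher, and pairs within A had a median of -0.03. Those medians had opposite signs on the same scale, as they did from 0.5 to 2 Mb (0.08 within B and -0.08 within A). From 2 to 10 Mb both were positive and the order turned, with 0.05 within B and 0.11 within A. Over 10 Mb they were 0.45 and 0.42, for the 377 pairs within B and 1781 within A that passed the abundance filter. That filter used the mean of the 4 libraries, so pairs could pass through high CreT control counts. These medians therefore do not describe all pairs at this distance.

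The pair with the smallest p was lower in the CreT control. It joins the bin of Anxa11, an annexin gene, on chromosome 14 (25799943 to 25899860) to the bin from 26300033 to 26400344, at normalised counts of 12.4 and 18.2 against 60.1 and 42.3 (log2 difference -1.76, SE 0.32, edgeR adjusted p = 0.217). With sex in the model its adjusted p was 0.000323, and at equal depth 0.0488, whereas DESeq2 gave 1.00 and the fit with the replicate number as a block 0.505. Next among the lower pairs, the bin of Ckb, the brain creatine kinase, and Trmt61a met that of Aspg and Kif26a on chromosome 12 with 35.9 and 31.1 counts against 67.9 and 95.6 (adjusted p = 0.643). Dock8, a regulator of lymphocyte migration, and its neighbour Kank1 met with 39.0 and 41.8 against 78.3 and 105. Among the higher pairs, besides the Anks1b bin with itself, were a pair reaching into the cadherin gene Cdh12 on chromosome 15 (21.7 and 18.6 against 3.28 and 3.90) and pairs that reach into Cdh13 and Sgcd. The abundance filter used the mean of the 4 libraries, and the Cdh12, Cdh13 and Sgcd pairs passed it only through their CreT control counts. Their differences are therefore a description and no support for a change.

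At Igh, Igk, Igl and Tcra/Tcrd, contacts within the locus had lower values in the CreT control, in bin pairs none of which was called. The spans used are those of the immunoglobulin and T-cell receptor genes on mm10. Within Igh (chromosome 12, 113254830 to 116010093), 157 of 433 bin pairs (36.3%) were lower with no overlap and 29 (6.70%) higher, beside 16.6% and 19% of all pairs. Those shares mix all distances. Among pairs at 0.5 to 2 Mb they were 18.6% lower and 16.8% higher, with 22.7% lower for pairs between A and B. The median log2 difference was -0.23. Igk (chromosome 6, 67555497 to 70726966) had 170 of 499 lower (34.1%) and 37 higher (7.41%), with a median of -0.21. Tcra/Tcrd had 38 of 83 lower (45.8%), with a median of -0.16. Tcrb had 2 of 36 lower and 3 higher, with a median of 0.04, so this locus did not show the pattern of the 4 others.

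Summed over a locus and divided by the level expected from distance, contacts of Igh were 1.10 and 0.949 in the CreT control, against 1.11 and 1.27. CreT control replicate 1 and Erg fl/fl control replicate 1 were thus nearly equal. Igk had 0.648 and 0.558 against 0.688 and 0.793, Igl 0.913 and 0.792 against 1.08 and 1.09, and Tcra/Tcrd 0.696 and 0.638 against 0.750 and 0.815. Tcrb (1.01, 1.01, 1.06 and 0.951) and Tcrg overlapped. When counts were divided by the coverage of both bins, the groups overlapped at Igh (log2 difference -0.08 in place of -0.21), Igk (-0.11 in place of -0.30) and Igl (-0.04 in place of -0.35), while Tcra/Tcrd stayed lower at -0.17. The lower values at the 3 immunoglobulin loci therefore depended on how bin coverage was treated.

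Within Igh, contacts had lower values in the CreT control with no overlap both from the 3' end to the middle and distal VH bins and among VH bins. The 3' end, 3 bins with the constant genes, enhancers and JH and DH segments, contacted the 16 distal VH bins at 2.03 and 1.65 times the level expected in the CreT control, against 2.18 and 3.08 times (1.84 ± 0.265 and 2.63 ± 0.638, SD, n = 2 each, exact permutation p = 0.333). On the log2 scale the difference was -0.50. It was -0.25 without the male library and -0.56 at equal depth. Contacts of the 3' end with the middle VH bins were 1.13 and 0.880 against 1.30 and 1.59. Of the 18 bin pairs between them, all had a negative log2 difference and 14 were lower with no overlap, beside 16.6% of all pairs. With the proximal VH bins the sums had the opposite order, at 1.29 and 1.26 against 1.20 and 1.16, while 6 of the 12 bin pairs were negative. From the 3' end to the distal VH bins 43 of 48 pairs were negative and 21 lower with no overlap. Their median was -0.44, against 0.01 over all pairs. Among VH bins, the log2 difference was -0.33 within the proximal bins, -0.38 from proximal to middle, -0.21 within the middle bins and -0.27 from middle to distal. Of the middle to distal pairs 82 of 96 were negative and 38 lower with no overlap. Bin pairs of a locus share bins and libraries, so they are not separate observations. Contacts from proximal to distal bins (1.43 and 1.06 against 1.36 and 1.86) and within the distal bins overlapped. When counts were divided by the coverage of both bins, the groups also overlapped within the middle bins (-0.02) and from middle to distal (-0.09). From the 3' end to the middle (-0.46) and distal bins (-0.42) the CreT control stayed lower with no overlap. So it did within the proximal bins (-0.21) and from proximal to middle (-0.22).

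The pair of Igh bins with the smallest p joined 113300095 to 113399870 with 114699796 to 114799964, at normalised counts of 19.8 and 14.9 against 34.3 and 57.1 (log2 difference -1.36, SE 0.32, edgeR adjusted p = 0.643). In the opposite direction, the 3' end bin from 113200177 and the bin of Adam6a from 113500009 met with 140 and 154 counts against 94.7 and 107 (log2 difference 0.55). Coverage of the proximal VH bins, which V(D)J recombination can delete, was -0.51 and -0.56 against -0.55 and -0.53 on the log2 scale relative to flanking bins. The means differed by 0.00 (exact permutation p = 1). The bin of Adam6b, beside the DH segments, had -0.03 and 0.00 against -0.10 and -0.35. Coverage of Igh as a whole overlapped as well, at -0.46 and -0.52 against -0.50 and -0.48.

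**Figure D5:**
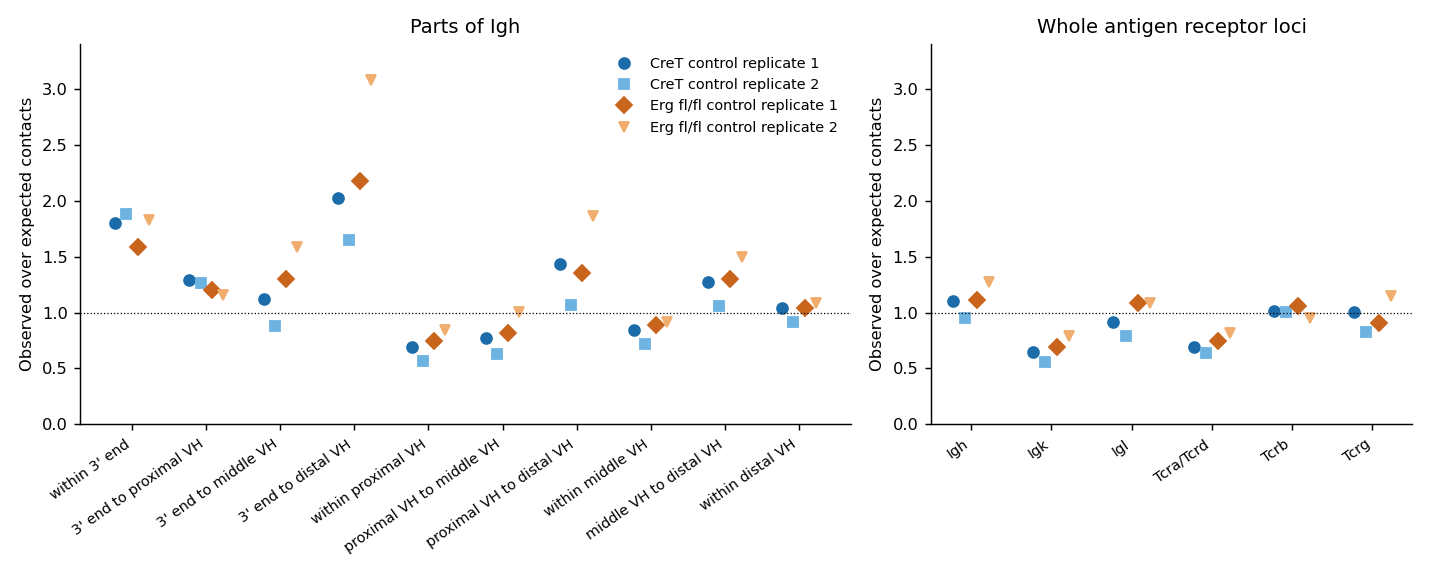
Contacts over those expected from distance (ratio, dotted line at 1) between and within the 4 parts of Igh (left) and within each of 6 antigen receptor loci (right), a point for each of the 4 control libraries. For the 3' end with the distal VH bins the CreT control points (2.03 and 1.65) lie below the Erg fl/fl control points (2.18 and 3.08), whose spread is the widest of the plot.

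Compartment scores of the receptor loci showed the male library apart in the same way. Igk had mean scores of -0.90 and -0.98 in the CreT control, -0.93 in Erg fl/fl control replicate 1 and -0.38 in replicate 2. Igl had -0.05 and -0.20 against 0.21 and 0.73, and all 3 of its bins were lower in the CreT control with no overlap, beside 29.8% of all bins. Tcrb was higher in the CreT control, at 0.56 and 0.55 against 0.35 and 0.36, in 6 of 8 bins with no overlap, beside 26.6% of all bins. It was the locus where the Erg fl/fl control replicates lay closest together. Insulation scores were lower in the CreT control with no overlap in 14 of 29 Igh bins, 23 of 33 Igk bins and all 3 of Igl, beside 18% of all bins.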

How the data were processed

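Per the authors' methods, diffHic was used to map in situ Hi-C reads to mm10 and mark duplicates, unligated and overlong pairs were removed, and the rest were tallied per pair of bins, each of whole restriction fragments summing to about 100 kb. The deposited values are raw counts per bin pair of each library, not normalised, with 1 list of bins for all. Groups came from the genotype labels. Members and gene lists were chosen with earlier results of these data known.

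Autosomal bins with coverage of 0.3 to 3 times the median were kept. Bin pairs at least 5 times above contacts between chromosomes were tested with the edgeR 4.0.16 quasi-likelihood test (R 4.3.3) and loess offsets over abundance, local contacts (200 kb to 2 Mb) with edgeR after TMM scaling, and compartment and insulation scores (window of 5 bins) with limma 3.58.1, over the 4 control libraries with group alone in the model. This departs from the authors' model of group and sex, because both CreT control libraries are female. Adjusted p-values are Benjamini-Hochberg values over all features, with a threshold of 0.05. P-values measure the spread between 2 libraries of a group, described as biological replicates. The scripts were tested on simulated data.

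Compartment scores came from the component, among the first 3, that follows gene density, taken from correlations between bins of smoothed contacts over those expected. Genes were placed by their start. Named bins are the 5 largest statistics in each direction whose groups do not overlap, with Rag1, Rag2, Erg, Ebf1, Pax5, the 6 receptor loci and, from each list, the 3 genes with the largest non-overlapping compartment difference. Alternatives were sex in the model, all 6 libraries, the replicate block, equal depth, left-out libraries, DESeq2 1.42.0, other normalisations, filters, windows, smoothing and flanks. Deviations of libraries with the same replicate number correlated at -0.40 in compartment, -0.49 in insulation, -0.39 in local contacts and -0.07 in bin pairs, so the numbers do not pair the samples. Scores, sums and plots were made in Python 3.11.15 (numpy 2.4.6, pandas 2.3.3, scipy 1.17.1, matplotlib 3.10.9).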

Additional observations from a re-analysis of the deposited data

How the results depend on the processing

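Counts of calls, 0 in each of the 4 tests, moved as follows. With group and sex in the model, where the Erg fl/fl control rests on its female library, 1 bin pair, 133 bins in local contacts and 156 in insulation passed. Over 6 libraries with sex, 4 bin pairs passed. At equal depth 2 bin pairs passed, with TMM 1 and with bin coverage as an offset 6. Without smoothing 1 compartment bin passed, that of Ccl28 and Hmgcs1. Leaving out libraries gave 0 to 3339 bin pairs, 0 to 10027 bins in local contacts, 0 to 6743 in compartment and 0 to 12403 in insulation. The highest of each came without Erg fl/fl control replicate 1, where the lone library is assumed to vary like the CreT control, and was 0 without either CreT control library. With the replicate block all 4 counts were 0. In this balanced layout a block cannot change a difference between group means, so it gives no check of the shares, the strength or the Igh values. A crossed pairing of replicates, chosen after seeing the data, gave 16 bin pairs, 120 bins in local contacts, 1326 in compartment and 105 in insulation.

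With libraries left out, the difference in the share between chromosomes ran from 1.43 to 4.13 points and over 10 Mb from 3.76 to 6.77. At 0.5 to 2 Mb it ran from -4.88 to -1.57, and that in slope from 0.08 to 0.13. The strength ran from 0.657 to 1.77 and the Igh 3' end to distal VH contact from -0.75 to -0.25. In all of these the groups do not overlap, so leaving out a library cannot change the sign, and only the sizes are informative. The outer 10% in place of the outer 20% of bins gave a strength difference of 2.05. The coverage difference at proximal VH bins was near 0 and turned to -0.034 with contacts between chromosomes alone and -0.011 with flanks of 1 Mb, and lay from -0.027 to 0.033 with libraries left out. Local contacts changed sign at Erg (0.11 with sex, 0.094 over 6 libraries, -0.19 to 0.11 with libraries left out), at Ebf1 (0.0046 with sex, -0.19 to 0.0065 with libraries left out) and at Pax5 (0.074 with sex, 0.033 over 6 libraries, -0.21 to 0.076 with libraries left out). Most of the 77 named features were picked from these data for groups that do not overlap. Leaving out a library cannot change the sign of such a feature. With left-out libraries not counted, 519 of 586 alternative values kept direction and side of the threshold, 62 passed it and 5 changed sign. These alternatives use the same libraries that chose the features, so the tally is no independent support. Of the 77, 65 passed without Erg fl/fl control replicate 1. With 29014581 read pairs, Erg fl/fl control replicate 2 set the depth of the comparison, and its sex cannot be told apart from other features of that library.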
